A study of Ovis aries with 19 samples.

Results

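The 9 genes described here, CANT1, CD22, KLHDC7A, MIOX, AASDH, NPTX2, UNC13C, SMTNL2 and DUSP26, were selected on their normalized counts in these same liver libraries, for the gap between treated and control liver, out of 28524 measured genes. Their liver values are therefore given as a description, with no test, and the tests below concern muscle and the level in muscle against liver. RNA came from liver and muscle of 10 female sheep, of which 5 had been exposed to excess testosterone before birth (called treated) and 5 were controls. Treated liver gave 5 libraries (sheep 48, 63, 185, 233 and 255) and control liver gave 4 (sheep 98, 131, 179 and 201), while muscle gave 5 treated and 5 control libraries, with sheep 132 as the additional control. Every animal of both groups was female and each library came from 1 animal. The labels do not name the breed, the age at sampling, the dose of testosterone or the muscle that was taken. Levels are normalized counts, that is, reads per gene divided by a size factor of the library. In liver 1 read was worth between 0.647 units (control 98) and 1.18 (treated 48). In muscle it was worth between 0.727 (treated 185) and 1.37 (control 201).

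Prenatal testosterone in sheep is a model of developmental programming, in which an altered hormonal setting before birth is followed by lasting changes in the metabolism of the offspring. The 9 genes do not form a pathway. CANT1, MIOX and AASDH encode enzymes, of nucleotide hydrolysis in the secretory pathway, of inositol breakdown and of the acyl-activating family. CD22 encodes a sialic acid receptor of B cells, UNC13C and NPTX2 encode proteins known from synapses, and SMTNL2 and DUSP26 encode proteins known from muscle and other excitable tissue. KLHDC7A encodes a kelch repeat protein whose role is little known.

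Liver libraries held 10236610 to 16046301 reads each, and muscle libraries 8455563 to 14331578. The hepatocyte markers measured, 5 of 7 listed, summed to between 745500 and 1950390 in treated liver and between 747831 and 1606090 in control liver, and to at most 135 in muscle. The skeletal muscle markers measured, 9 of 10 listed, summed to at least 908545 in muscle and to at most 192 in liver, so the tissue labels matched their markers in all 19 libraries.

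In treated liver, 6 of the 9 genes were lower than in control liver and 3 were higher. Treated and control libraries did not overlap for 6 genes, namely CANT1, CD22, KLHDC7A and SMTNL2, which were lower, and AASDH and NPTX2, which were higher. For AASDH and NPTX2 this turned with the scaling, since the lowest treated library fell below the highest control when reads were scaled to library totals. For MIOX, UNC13C and DUSP26 at least 1 treated library lay among the controls. Over all 13640 genes tested in liver the ranges did not overlap for 1.54%, 0.682% with treated lower and 0.858% with treated higher. The members were picked for this gap, so nothing is read from their count.

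**Figure D1:**
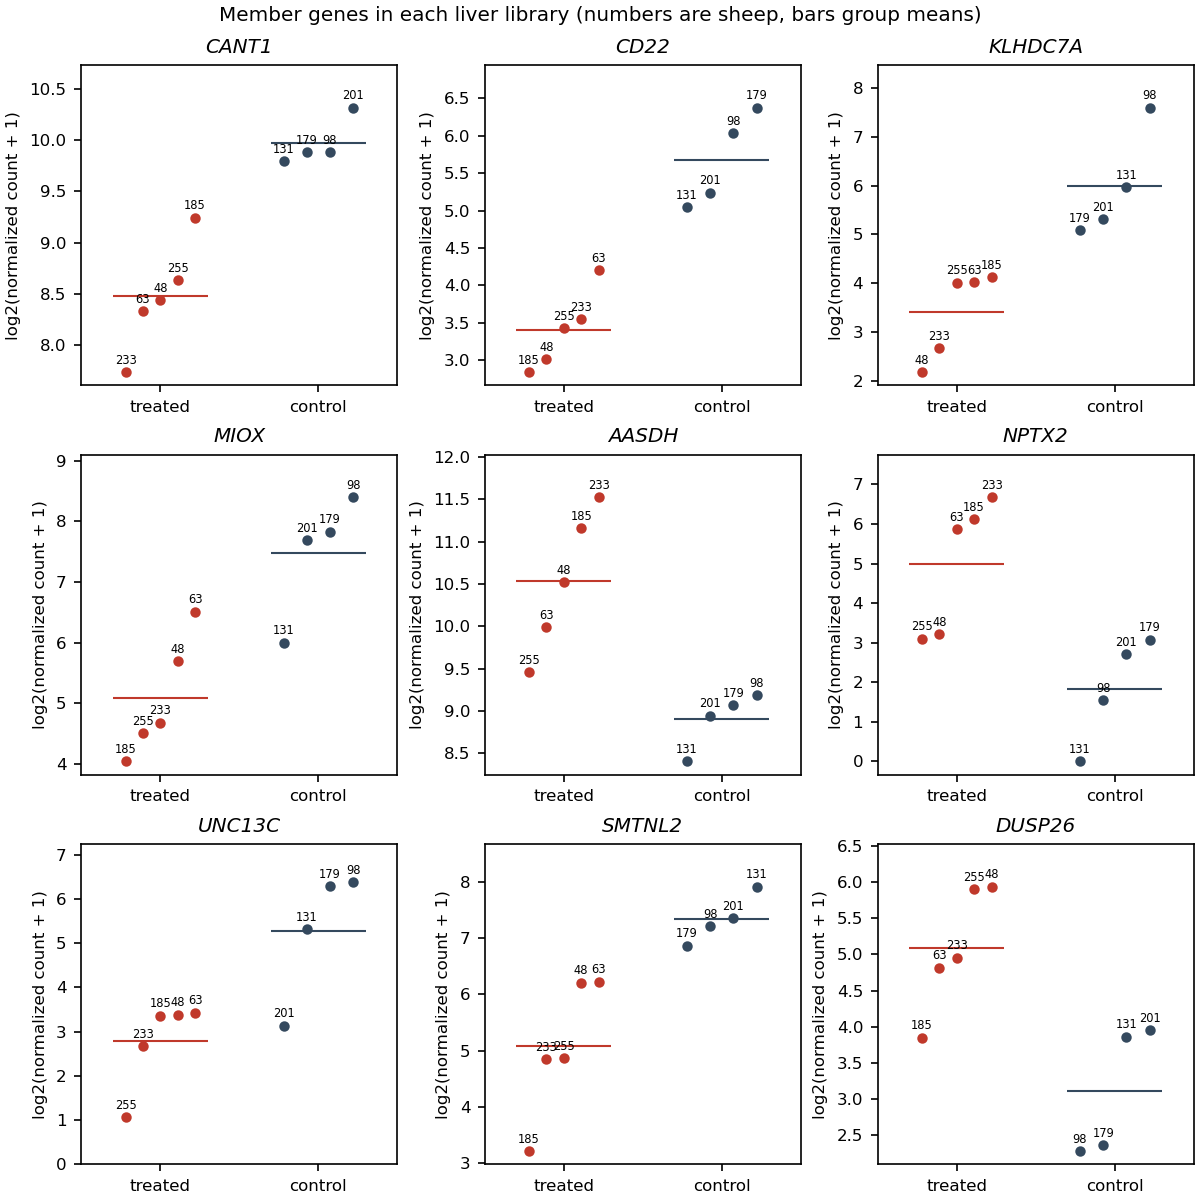
Level of each of the 9 genes in every liver library, on the log2(normalized count + 1) scale, with treated libraries left of control libraries; numbers are sheep, points are set side by side in order of level, and bars are means of the log2 values. Treated 63 lies above control 131 for MIOX, control 201 lies among the treated libraries for UNC13C, and treated 185 lies among the controls for DUSP26.

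CANT1, a calcium-activated nucleotidase of the endoplasmic reticulum and Golgi that is needed for proteoglycan synthesis, varied least among control livers of the 9, with a coefficient of variation of 17.5%. It had normalized counts of 347, 322, 605, 213 and 397 in treated sheep 48, 63, 185, 233 and 255, and of 942, 887, 941 and 1273 in control sheep 98, 131, 179 and 201. The highest treated library, sheep 185, stayed below the lowest control, sheep 131. The mean was 377 ± 144 (SD, n = 5) in treated and 1011 ± 177 (SD, n = 4) in control liver, a log2 difference of -1.49 ± 0.29 (SE).

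MIOX encodes myo-inositol oxygenase, which opens the inositol ring to glucuronate and is best known from kidney. It had normalized counts of 50.7, 90.2, 15.5, 24.6 and 21.7 in treated liver (sheep order as before), and of 336, 63.0, 226 and 205 in control liver. Control 131 was far below the other controls and also below treated 63, so the groups overlapped. The mean was 40.5 ± 30.9 (SD, n = 5) in treated and 208 ± 112 (SD, n = 4) in control liver, a log2 difference of -2.39 ± 0.56 (SE). The 5 kidney tubule markers summed to between 4.12 and 15.2 in treated and between 5.80 and 35.6 in control liver, where none of them passed a mean of 10.

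AASDH, a member of the acyl-CoA synthetase family related to the yeast enzyme of lysine synthesis, had normalized counts of 1469, 1014, 2285, 2951 and 701 in treated liver, and of 580.0, 337, 534 and 491 in control liver. Treated 255, the lowest treated library, was just above control 98, while treated 233 stood far above every control. The mean was 1684 ± 926 (SD, n = 5) in treated and 485 ± 105 (SD, n = 4) in control liver, a log2 difference of 1.63 ± 0.39 (SE).

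KLHDC7A had normalized counts of 3.54, 15.2, 16.5, 5.35 and 15.2 in treated liver, and of 193, 62.0, 33.2 and 39.0 in control liver. The groups did not overlap, but control 98 was well above the other controls. The mean was 11.2 ± 6.18 (SD, n = 5) in treated and 81.9 ± 75.4 (SD, n = 4) in control liver, and the control mean was 44.7 without sheep 98. The log2 difference was -2.60 ± 0.59 (SE), from 52 reads in all treated and 438 reads in all control livers.

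CD22, an inhibitory receptor of the B-cell surface, had normalized counts of 7.08, 17.4, 6.18, 10.7 and 9.75 in treated liver, and of 64.7, 32.0, 82.1 and 36.7 in control liver. Every treated library was lower than every control. The mean was 10.2 ± 4.42 (SD, n = 5) in treated and 53.9 ± 23.7 (SD, n = 4) in control liver, a log2 difference of -2.27 ± 0.42 (SE). In bulk tissue, fewer cells of a type and less RNA per cell cannot be told apart.

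For each of 9 other B-cell genes the treated and control livers overlapped. These B-cell markers summed to between 60.7 and 346 in treated liver with a median of 134, and to between 124 and 264 in control liver with a median of 136. CD79A, a signalling chain of the B-cell receptor, had a mean of 11.2 ± 6.39 (SD, n = 5) in treated and 8.52 ± 2.83 (SD, n = 4) in control liver. CD79B, its partner, had 5.23 ± 1.40 (SD, n = 5) in treated and 6.07 ± 4.16 (SD, n = 4) in control liver, and MS4A1, the gene of CD20, had 2.36 ± 2.34 (SD, n = 5) in treated and 4.77 ± 4.00 (SD, n = 4) in control liver. PAX5, a B-cell transcription factor, was at 0 in all treated and in all but 1 of the control livers. Of the 3 markers past a mean of 10, 2 were higher and 1 lower, and by limma 0 passed at an adjusted or at an unadjusted p under 0.05.

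**Figure D2:**
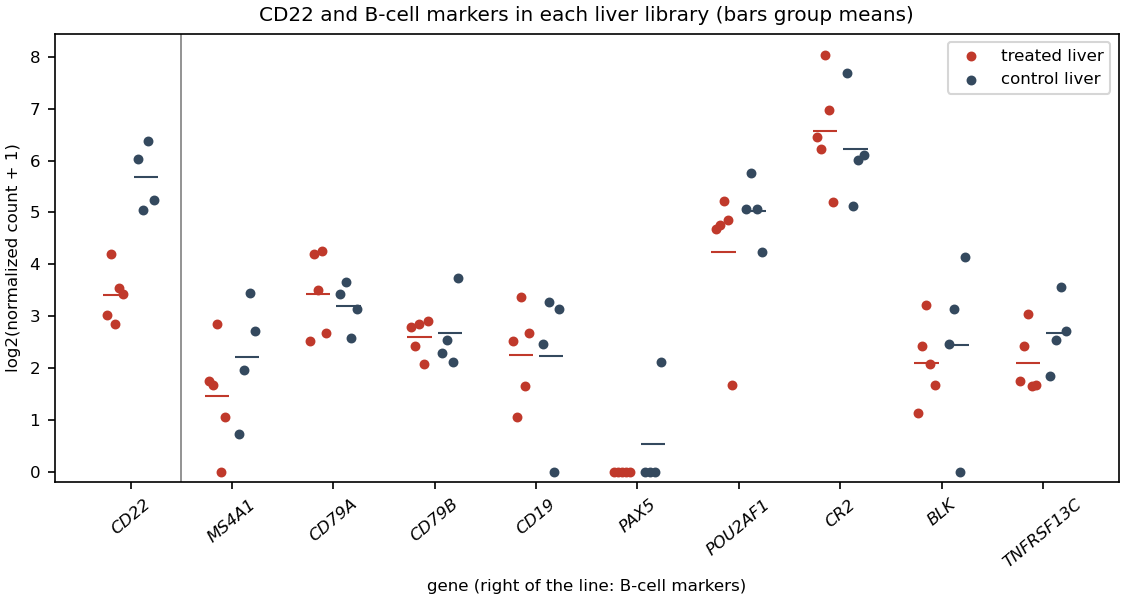
CD22 and the 9 B-cell markers in every liver library, on the log2(normalized count + 1) scale, with treated libraries left of controls for each gene and bars at the means. CD22 shows 2 separate clouds, while treated and control points of the 9 markers are mixed.

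UNC13C and NPTX2 encode proteins best known from nerve endings, and their liver differences had opposite signs. UNC13C, which primes synaptic vesicles for release, had normalized counts of 9.43, 9.78, 9.27, 5.35 and 1.08 in treated liver, and of 82.8, 38.7, 77.1 and 7.79 in control liver. Control 201 lay within the treated range, below 3 of the 5 treated libraries. The mean was 6.98 ± 3.76 (SD, n = 5) in treated and 51.6 ± 35.2 (SD, n = 4) in control liver, a log2 difference of -2.50 ± 0.72 (SE).

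NPTX2, a secreted pentraxin that gathers glutamate receptors at synapses, had normalized counts of 8.25, 57.6, 69.0, 102 and 7.58 in treated liver, and of 1.94, 0, 7.46 and 5.56 in control liver. Treated libraries fell into a high set, sheep 63, 185 and 233, and a pair, sheep 48 and 255, that lay within 1 unit of control 179. Control 179 had 9 reads, and treated 48 and 255 had 7 reads each, so their order turned with the scaling. The mean was 48.8 ± 40.7 (SD, n = 5) in treated and 3.74 ± 3.39 (SD, n = 4) in control liver, from 229 reads in treated and 17 in control livers, a log2 difference of 3.16 ± 0.88 (SE). The count of 0 in control 131 allows a normalized count of up to 2.91, which covers counting error only. The 7 neuronal and neuroendocrine markers summed to between 4.28 and 13.4 in treated and between 5.81 and 28.9 in control liver, and none passed a mean of 10.

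SMTNL2, a relative of the smooth muscle protein smoothelin, and DUSP26, a phosphatase of mitogen-activated protein kinases, also had liver differences of opposite sign. SMTNL2 had normalized counts of 73.1, 73.9, 8.24, 27.8 and 28.2 in treated liver, and of 148, 242, 116 and 164 in control liver. All treated libraries were below all controls, and treated 185 was the lowest by far. The mean was 42.2 ± 29.6 (SD, n = 5) in treated and 167 ± 53.5 (SD, n = 4) in control liver, a log2 difference of -2.27 ± 0.55 (SE).

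DUSP26 had normalized counts of 60.1, 27.2, 13.4, 30.0 and 58.5 in treated liver, and of 3.88, 13.6, 4.15 and 14.5 in control liver. Treated 185 lay between the lower and the upper pair of controls. The mean was 37.8 ± 20.6 (SD, n = 5) in treated and 9.01 ± 5.79 (SD, n = 4) in control liver, a log2 difference of 1.97 ± 0.55 (SE).

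Both genes are abundant in skeletal muscle, so their liver level was set against that of muscle markers in the same livers. SMTNL2 stood at 0.143% to 1.20% of its mean muscle level in treated liver and at 1.69% to 4.55% in control liver. DUSP26 stood at 0.200% to 0.833% in treated and at 0.0521% to 0.220% in control liver. None of the 9 muscle markers exceeded 0.136% in any liver library, and ACTA1, the skeletal muscle actin, reached at most 0.000414% in treated and 0.00312% in control liver. DUSP26 was below the marker CASQ1 in control 98 (0.0647% against 0.0880%) and control 179 (0.0521% against 0.136%), and above it in the other livers. The muscle markers summed to between 56.7 and 103 in treated liver, with CKM and MYH1 at 0 in each treated library, and to between 99.6 and 192 in control liver. Of the 4 muscle markers past a mean of 10 in liver, 0 were higher and 4 lower in treated liver by the log2 difference. For MYBPC1 the mean normalized count went the other way, at 38.6 in treated and 33.0 in control liver. By limma 0 of them passed at an adjusted p under 0.05, and NEB alone passed at an unadjusted p under 0.05. NEB lay between 6.42 and 25.8 in treated and between 37.5 and 63.4 in control liver. These ranges did not overlap, as for 0.682% of all genes in this direction.

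**Figure D3:**
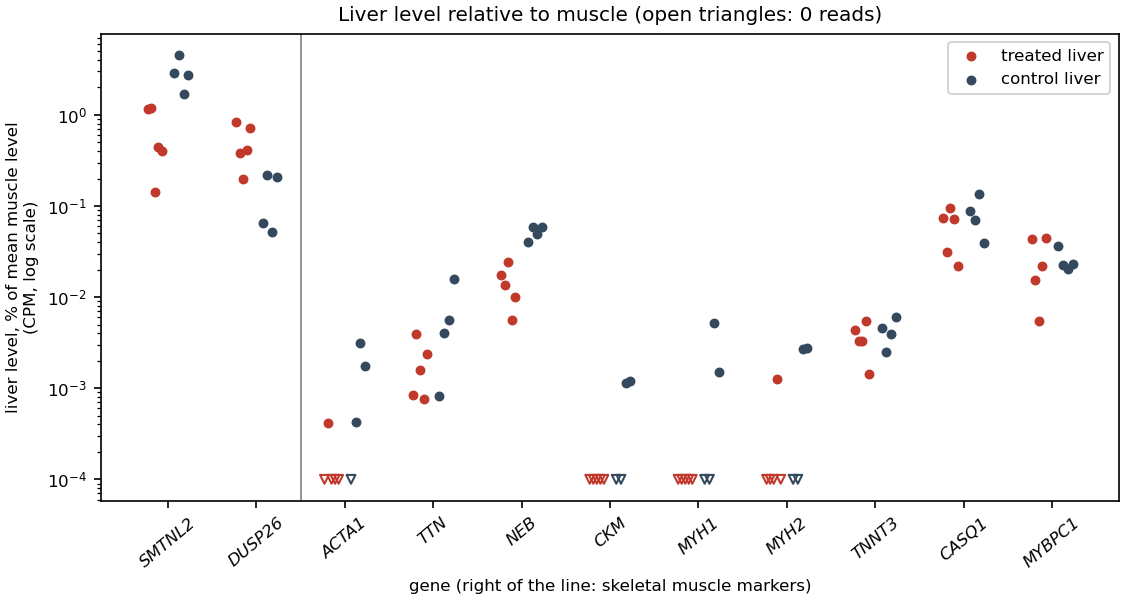
Liver level of SMTNL2, DUSP26 and 9 skeletal muscle markers in each liver library, as a percentage of the gene's mean level in muscle (CPM, logarithmic axis), treated libraries left of controls; open triangles mark libraries with 0 reads. SMTNL2 reaches 4.55% and DUSP26 0.833%, while no muscle marker is above 0.136%. In control 98 and control 179, DUSP26 lies below the marker CASQ1.

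The libraries that stood highest or lowest differed from gene to gene. Among treated livers, sheep 63 was the highest of its group for 4 of the 9 genes, and sheep 185 the lowest for 4 and the highest for 2. Among control livers, sheep 131 was the lowest for 5 genes and sheep 98 the highest for 4. Treated 255 was the lowest treated library for UNC13C, AASDH and NPTX2, and the highest for none. Across all liver genes the median absolute log2 difference was 0.22, against 2.27 for the 9 genes, which were picked for it.

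**Figure D4:**
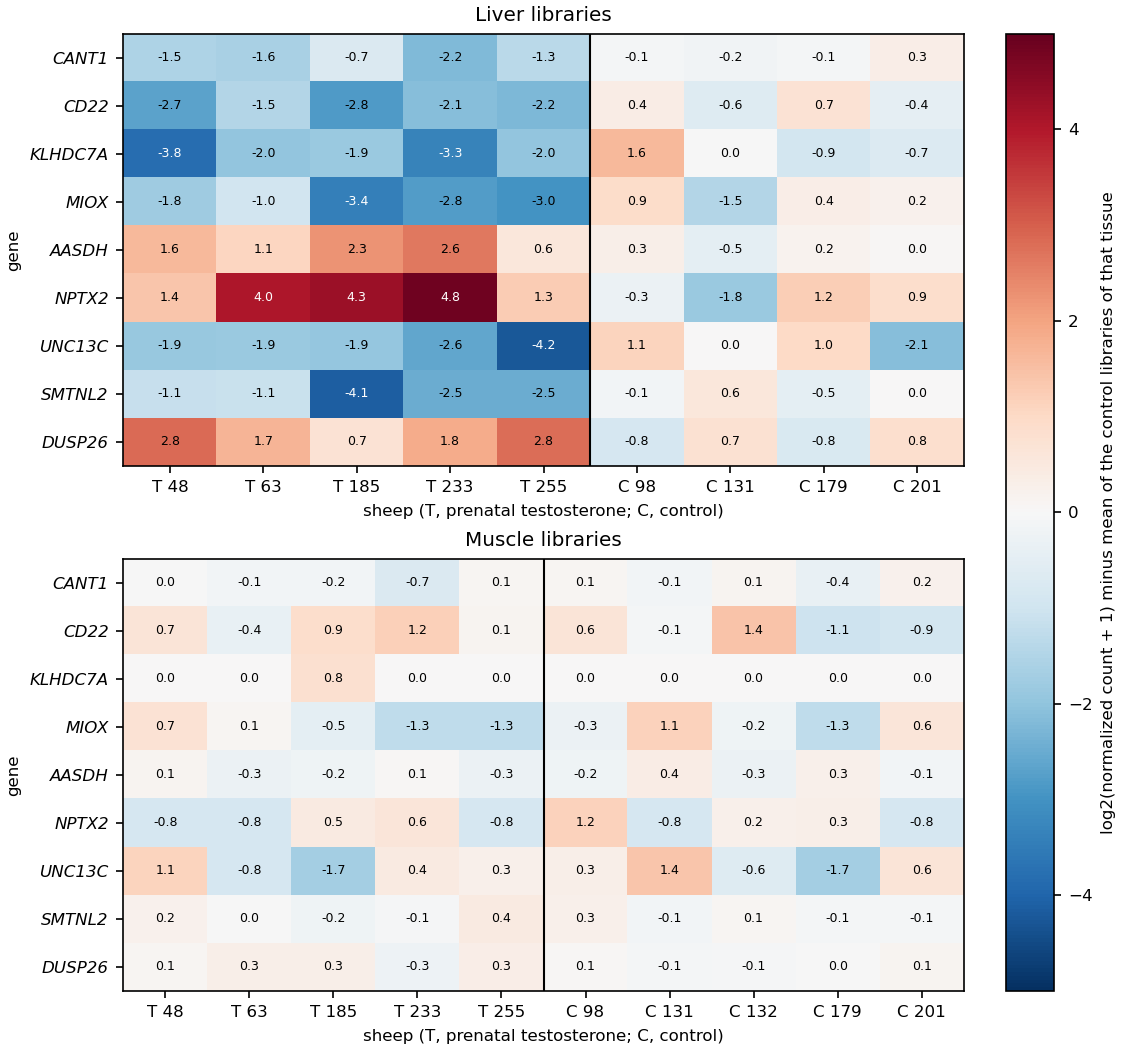
Difference of each library from the mean of the control libraries of the same tissue, on the log2(normalized count + 1) scale, for the 9 genes (rows) in liver (top) and muscle (bottom), with treated sheep (T) left of control sheep (C). Treated liver runs from -4.22 (UNC13C, sheep 255) to 4.84 (NPTX2, sheep 233), with small values such as 0.56 for AASDH in sheep 255, and muscle runs from -1.70 to 1.21 in treated and from -1.70 to 1.42 in control libraries, with the ends at UNC13C and CD22.

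Markers of other cell types were also read in these livers, where the summed levels of the groups overlapped for each list, and their part in the values of the 9 genes was not tested. The 7 adipocyte markers summed to between 102 and 302 in treated and between 219.8 and 519 in control liver. PLIN1, CIDEC, LPL, FABP4 and LEP had a lower mean in treated liver, and PLIN4 was at 0 in every liver library. ADIPOQ was at 0 in every control library and had a mean of 0.442 in treated liver. The 8 T and NK cell markers summed to between 332 and 659.6 in treated and between 247 and 415 in control liver. The 6 markers of stellate and smooth muscle cells summed to between 1209 and 2307 in treated and between 1712 and 3564 in control liver. The 5 bile duct markers summed to between 125 and 401 in treated and between 173 and 302 in control liver. Directions in treated liver were read from the log2 difference of the markers past a mean of 10. For adipocytes 4 were lower and 0 higher, and for T and NK cells 8 were higher and 0 lower. For stellate and smooth muscle cells 6 were lower and 0 higher, and for bile duct 4 were lower and 1 higher. By limma 0 of the markers past a mean of 10 passed at an adjusted p under 0.05 in these lists, and at an unadjusted p under 0.05 there were 3 lower of 4 adipocyte markers, 2 higher of 8 T and NK cell markers, 1 lower of 6 stellate and smooth muscle markers and 0 of 5 bile duct markers, against 1.82% higher and 2.17% lower of all genes.

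For each of the 9 genes the named liver genes with the closest profile were taken, by the root mean squared difference of log2(normalized count + 1) over the 9 liver libraries after centring each gene on its own mean. KIAA1549L was closest to AASDH, at 0.29 log2 units against a spread of 1.01 in AASDH itself. It had a mean of 355 ± 221 (SD, n = 5) in treated and 107 ± 41.1 (SD, n = 4) in control liver. GALNT11, which starts O-linked glycans, was next at 0.37, with 1107 ± 778 (SD, n = 5) in treated and 328 ± 32.5 (SD, n = 4) in control liver. CCNB2, a cyclin of mitosis, at 0.33, and NEB, the giant nebulin of the sarcomere, at 0.34, were closest to CANT1, whose own spread was 0.83.

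MFSD2A, a carrier of lysophospholipids, was closest to MIOX, at 0.54 against a spread of 1.49, with a mean of 107 ± 69.0 (SD, n = 5) in treated and 459 ± 248 (SD, n = 4) in control liver. CD22 was the second gene for MIOX, at 0.66, the only case in which a member was named for another. SLC25A45, a mitochondrial carrier, and ME1, the cytosolic malic enzyme, were closest to CD22, at 0.53 and 0.54 against a spread of 1.24. ACACB, an acetyl-CoA carboxylase, was closest to KLHDC7A (0.75 against 1.57), ALDH1L2 and FGF21, a mitochondrial folate enzyme and a fasting hormone, to UNC13C (0.79 and 0.82 against 1.66), and APOA5, an apolipoprotein, to SMTNL2 (0.60 against 1.42). C1H1orf87 was closest to DUSP26 at 0.42 against 1.25, and the nearest gene to NPTX2, KIAA1211, lay at 1.02 against 2.10. The second genes were EXTL1 for KLHDC7A (0.87), PHACTR3 for SMTNL2 (0.62), TLDC2 for DUSP26 (0.70) and CTTNBP2 for NPTX2 (1.11). Closeness here includes the difference between the groups for which the 9 genes were picked.

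In the RefSeq annotation of ARS-UI_Ramb_v3.0, a sheep genome assembly, all 9 genes had a protein-coding entry, and their neighbours were read from it. A neighbour here is the nearest annotated gene on either side whose symbol is also among the measured genes. Genes listed under another symbol, or not measured, were passed over, so a neighbour need not be the adjacent gene. Of 18 flanking genes 9 passed a mean of 10 in liver, and by limma 0 of these passed at an adjusted p under 0.05 and 1 at an unadjusted p under 0.05. This one, singled out after its values were seen, was PPAT, the first enzyme of purine synthesis, a measured neighbour of AASDH. PPAT had normalized counts of 2169, 1877, 2359, 4366 and 1990.2 in treated liver, and of 1209, 1014, 1752 and 1011 in control liver. The groups did not overlap, as for 0.858% of all genes in this direction, and treated 233 was the highest for PPAT as for AASDH. The log2 difference of PPAT was 0.996 ± 0.29 (SE), with a limma adjusted p of 0.865.

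The measured neighbour on the other side of AASDH was the centrosome gene CEP135. Its mean was 25.6 ± 16.6 (SD, n = 5) in treated and 19.9 ± 13.0 (SD, n = 4) in control liver. LGALS3BP, a secreted glycoprotein, was a measured neighbour of CANT1. It had 504 ± 327 (SD, n = 5) in treated and 1076 ± 695 (SD, n = 4) in control liver, with overlapping groups. CD22, UNC13C, SMTNL2 and DUSP26 overlap another gene in that assembly, and without a stated strand setting reads of overlapping genes cannot be told apart. FFAR1, which overlaps CD22, was at 0 in every liver library.

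Genes of the same families or pathways as the 9 members were grouped in 8 lists of 146 places, of which 107 were tested in liver. By limma 0 passed at an adjusted p under 0.05, against 0.00733% of all genes tested, and at an unadjusted p under 0.05 there were 1 higher and 2 lower, against 1.82% and 2.17%. The higher one was DUSP14, a phosphatase related to DUSP26, with a mean of 111 ± 36.7 (SD, n = 5) in treated and 51.8 ± 19.6 (SD, n = 4) in control liver and a limma adjusted p of 0.908. The lower ones were ENTPD5, a nucleotidase like CANT1, with 776 ± 314 (SD, n = 5) in treated and 1506 ± 741 (SD, n = 4) in control liver, and ACSS2, an acetyl-CoA synthetase of the family of AASDH, with 168 ± 27.7 (SD, n = 5) in treated and 257 ± 59.2 (SD, n = 4) in control liver. Both had a limma adjusted p of 0.999, and neither overlapped between the groups, as for 0.682% of all genes in this direction.

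The median log2 difference over all liver genes was 0.0032, and the list medians are given beside it. The inositol and glucuronate list of MIOX had a median of 0.0099 over 14 genes, and 0 of them passed at an unadjusted p under 0.05. CDIPT, which makes phosphatidylinositol, had 234 ± 66.7 (SD, n = 5) in treated and 289 ± 66.5 (SD, n = 4) in control liver. The lysine and acyl-CoA synthetase list of AASDH had a median of 0.11 over 14 genes, the nucleotidase and proteoglycan list of CANT1 -0.019 over 17, and the phosphatase list of DUSP26 -0.010 over 17. The smoothelin and smooth muscle list of SMTNL2 had a median of -0.15 over 14 genes, the kelch list of KLHDC7A 0.029 over 15, the B-cell list of CD22 0.20 over 9, and the synaptic and pentraxin list of UNC13C and NPTX2 0.068 over 7.

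The same treatment was then examined in muscle, whose libraries played no part in the choice of the genes. None of the 9 genes had separate treated and control ranges there. Of the 12966 genes tested in muscle, all past a mean of 10, 3.29% had separate ranges. Only 4 of the 9 genes were in that set, too few to be told from this share. CANT1, AASDH, SMTNL2 and DUSP26 passed a mean of 10, and by limma 0 of these 4 passed at an adjusted p under 0.05 or at an unadjusted p under 0.05, against 0.00771% and 14.4% of all genes. By edgeR and by DESeq2 0 of the 4 passed as well, while DESeq2 called 252 genes over all. Their median absolute log2 difference was 0.14, against 0.19 over all genes.

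CANT1 had normalized counts of 229, 215, 211, 144 and 251 in treated muscle of sheep 48, 63, 185, 233 and 255, and of 253, 215, 259.6, 183 and 276 in control muscle of sheep 98, 131, 132, 179 and 201. The groups overlapped, and only treated 233 was below every control. The log2 difference was -0.18 ± 0.17 (SE), with a 95% interval from -0.55 to 0.18 and a limma adjusted p of 0.652.

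AASDH had normalized counts of 198, 146, 154, 190.0 and 148 in treated muscle, and of 156, 234, 146, 217 and 165 in control muscle. The libraries of both groups were mixed. The log2 difference was -0.12 ± 0.17 (SE), with a 95% interval from -0.48 to 0.23 and a limma adjusted p of 0.775.

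SMTNL2 had normalized counts of 6455, 5456, 4753, 5292 and 7449 in treated muscle, and of 6557, 5079, 5819, 5101 and 5141 in control muscle. The log2 difference was 0.075 ± 0.15 (SE), with a 95% interval from -0.24 to 0.39 and a limma adjusted p of 0.851. Without treated 255, the highest library, it was -0.014.

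DUSP26 had normalized counts of 6722, 7556, 7569, 5234 and 7859 in treated muscle, and of 6552, 5821, 5912, 6117 and 6815 in control muscle. Treated 63, 185 and 255 were above every control, but treated 233 was below every control. The log2 difference was 0.15 ± 0.14 (SE), with a 95% interval from -0.15 to 0.45 and a limma adjusted p of 0.658.

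The other 5 genes had a mean under 10 in muscle and were tested there only with the filter on low values left out. CD22 had normalized counts of 6.09, 2.43, 7.27, 9.37 and 3.88 in treated muscle, and of 5.95, 3.25, 11.0, 1.16 and 1.37 in control muscle. These ranges overlapped widely, and the control mean of 4.55 became 2.93 without sheep 132. UNC13C lay between 0 and 6.09 in treated and between 0 and 7.58 in control muscle, with 14 reads in each group. MIOX lay between 0 and 3.04 in treated and between 0 and 4.33 in control muscle, with 6 reads in treated and 8 in control muscle. NPTX2 lay between 0 and 1.70 in treated and between 0 and 2.98 in control muscle, with 4 reads in treated and 5 in control muscle. KLHDC7A had 1 read in treated muscle, in sheep 185, and 0 reads in control muscle, where the count of 0 allows a normalized count of up to 2.98 to 4.10 per library. With no filter on low values, by limma 0 of the 9 genes passed in muscle at an adjusted or at an unadjusted p under 0.05. The log2 difference was 0.50 for CD22 (95% interval from -0.60 to 1.6), -0.44 for MIOX (-1.50 to 0.63), -0.29 for NPTX2 (-1.24 to 0.66), -0.14 for UNC13C (-1.47 to 1.18) and 0.16 for KLHDC7A (-0.34 to 0.65). At a few reads per library the added count of 1 shrinks these differences and narrows their intervals.

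Of the family and pathway lists, 104 places were tested in muscle, where by limma 0 passed at an adjusted p under 0.05, and 6 were higher and 9 lower at an unadjusted p under 0.05, together against 14.4% of all genes. DUSP3, a phosphatase related to DUSP26, had a mean of 3137 ± 422 (SD, n = 5) in treated and 5075 ± 924 (SD, n = 5) in control muscle, with a limma adjusted p of 0.132. KLHDC8B, a kelch gene like KLHDC7A, had 230.3 ± 46.5 (SD, n = 5) in treated and 139 ± 15.5 (SD, n = 5) in control muscle, with a limma adjusted p of 0.135. UNC13D, a relative of UNC13C that primes granules of immune cells, had 48.9 ± 10.2 (SD, n = 5) in treated and 31.4 ± 5.65 (SD, n = 5) in control muscle, with a limma adjusted p of 0.242. The groups did not overlap for DUSP3 and KLHDC8B, as for 1.53% of all genes with treated lower and 1.76% with treated higher. They also did not overlap for KLHL20, of the kelch list, and TPM1, of the smooth muscle list, both lower in treated muscle. The limma adjusted p was 0.176 for KLHL20 and 0.283 for TPM1.

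The level in muscle was set against that in liver in CPM, the reads of a gene scaled to the total of its library, over both treatment groups. On this scale the median gene lay 0.25 above 0 on the log2 scale in muscle minus liver, and at 0.0069 with TMM scaling. SMTNL2 and DUSP26 had a higher mean in muscle, and the other 7 genes a lower one. Of all 14254 genes tested, 45.0% were higher and 34.0% lower in muscle at a limma adjusted p under 0.05. This balance turned with the scaling: 6419 genes were higher and 4840 lower as above, but 5586 higher and 5642 lower with TMM scaling, and 5352 higher and 5884 lower by edgeR.

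SMTNL2 lay between 403 and 728 CPM in muscle and between 0.737 and 23.5 in liver. It was higher in muscle in 9 of 9 sheep with both tissues, by 6.32 ± 0.28 (SE) on the log2 scale, at an adjusted p of 3.91e-15 by limma. DUSP26 lay between 462 and 758 in muscle and between 0.312 and 4.98 in liver, also higher in muscle in 9 of 9 sheep, by 8.63 ± 0.25 (SE) on the log2 scale, at an adjusted p of 1.18e-18 by limma. In control sheep alone the log2 difference was 4.99 for SMTNL2 and 9.37 for DUSP26.

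CANT1 was lower in muscle, at 13.2 to 25.9 CPM, than in liver, at 17.5 to 111, in 9 of 9 sheep, with a log2 difference of -1.37 ± 0.18 (SE), at an adjusted p of 4.27e-07 by limma. The ranges overlapped because treated 233 had 17.5 in liver. AASDH was lower in muscle as well, at 12.3 to 22.3, against 32.7 to 243 in liver, without overlap, with a log2 difference of -2.21 ± 0.23 (SE), at an adjusted p of 9.84e-09 by limma. In control sheep alone the log2 difference was -2.18 for CANT1 and -1.49 for AASDH.

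The remaining 5 genes entered the test through their liver reads alone, so their differences are given as levels. KLHDC7A had 1 read in the 10 muscle libraries together and 490 reads in the 9 liver libraries, a ratio of 515 of liver over muscle after scaling to total reads, with an exact 95% interval from 92.1 to 20402. MIOX had 14 reads in muscle and 1226 in liver, a ratio of 92.1 (54.7 to 169), and NPTX2 had 9 reads in muscle and 246 in liver, a ratio of 28.8 (14.9 to 63.6). UNC13C had 28 reads in muscle and 300 in liver, a ratio of 11.3 (7.64 to 17.3), and CD22 had 55 reads in muscle and 312 in liver, a ratio of 5.97 (4.47 to 8.10). These intervals cover counting error only. Of the liver reads, 229 of the 246 for NPTX2 came from treated liver, and 299 of the 490 for KLHDC7A from control 98 alone. Muscle was higher than liver in 2 of 9 sheep for CD22, in 1 of 9 for NPTX2, in 1 of 9 for UNC13C and in 0 of 9 for KLHDC7A and MIOX.

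The distance between the tissues was also read within each treatment group, where the liver values are those the genes were selected on. CD22 lay between 0.209 and 0.856 CPM in treated muscle and between 0.553 and 1.45 in treated liver, ranges that overlapped. In control sheep it lay between 0.0978 and 0.977 in muscle and between 3.10 and 6.45 in liver, which did not overlap. NPTX2 lay between 0 and 0.156 in treated muscle and between 0.557 and 8.37 in treated liver, but between 0 and 0.235 in control muscle and between 0 and 0.561 in control liver, which overlapped. UNC13C lay between 0 and 0.686 in treated muscle and between 0.0795 and 0.830 in treated liver, which overlapped, with 14 and 32 reads. In control sheep UNC13C lay between 0 and 0.601 in muscle and between 0.678 and 8.26 in liver, without overlap, with 14 and 268 reads, so its pooled ratio rests on the control livers.

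**Figure D5:**
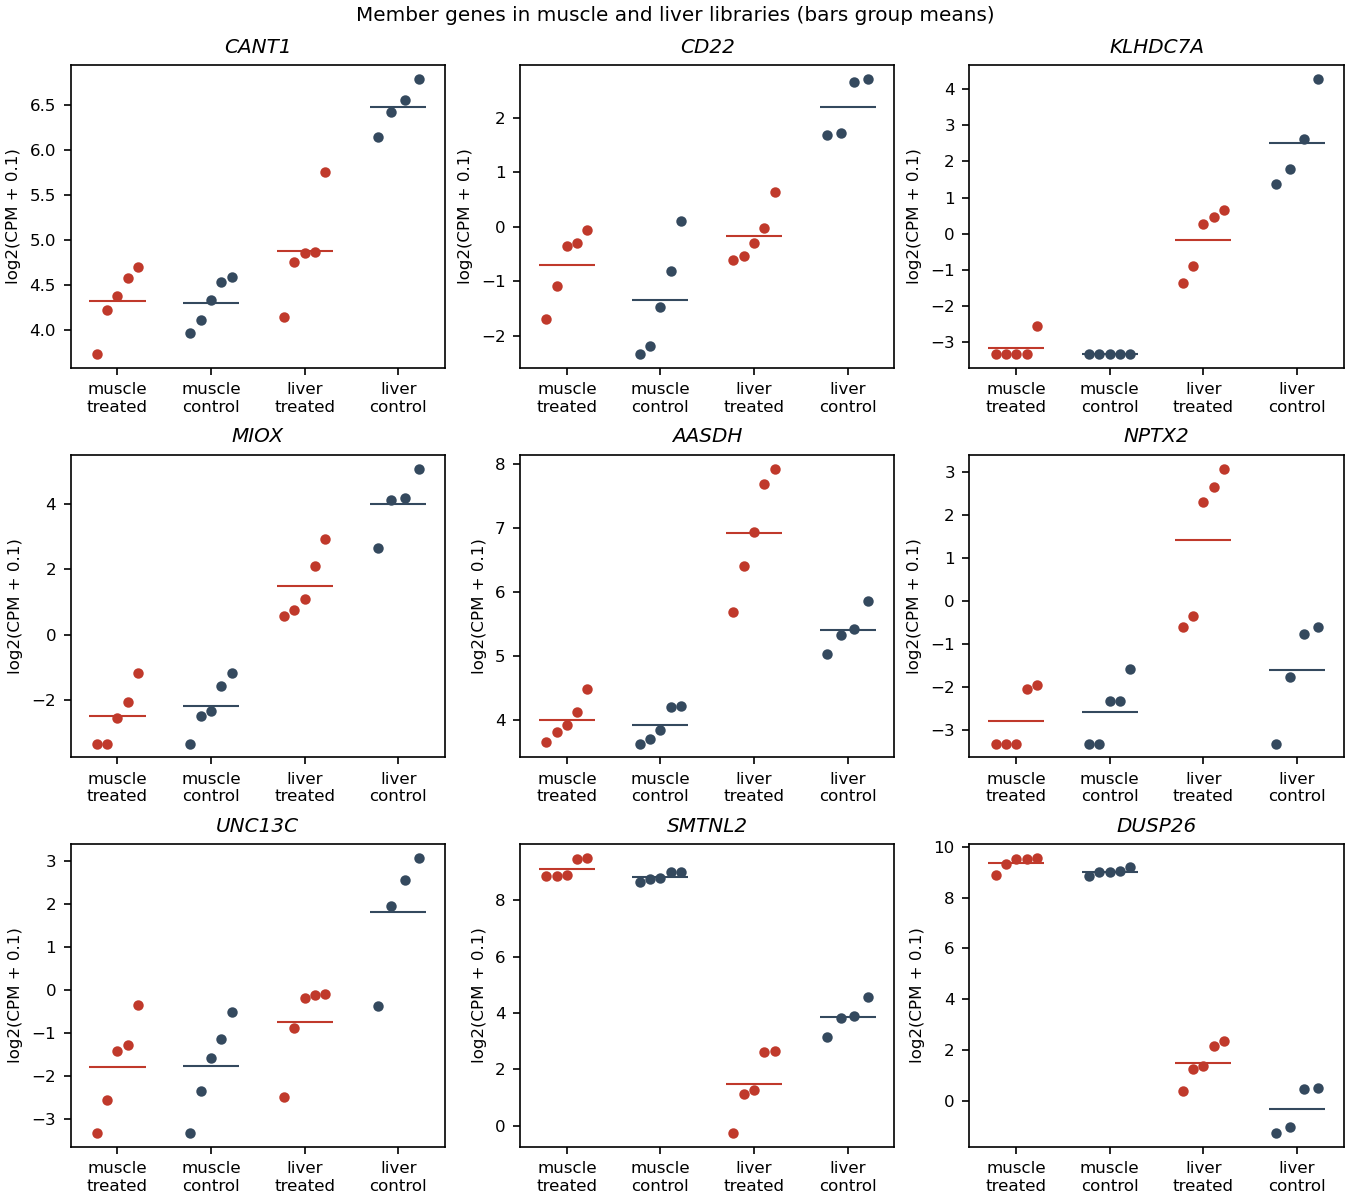
Level of the 9 genes in every library on the log2(CPM + 0.1) scale, with muscle left of liver and treated left of control within each tissue; bars are means of the log2 values. SMTNL2 and DUSP26 stand at 403 CPM or more in all muscle libraries, and KLHDC7A is at 0 in all muscle libraries but treated 185.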

How the data were processed

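The deposited signal was a normalized count per gene and library, which the authors made from reads with Trimmomatic, STAR and featureCounts 1.6.1. These tools are named in the submitters' processing notes, and build, annotation and strand setting are not given in the sources used here. Per the labels' protocols, total RNA was prepared with the TruSeq RNA kit. Divided by the smallest step of its library, 100% of the values came out whole within 0.01 read, so reads were recovered. The deposited scaling differed from median-of-ratios size factors recomputed within each tissue by a relative 1.93e-10 at most, so normalized counts were compared only within a tissue.

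The 9 genes, the lists and the tests were chosen with earlier results of these data known. Genes with a mean of at least 10 were tested on log2(normalized count + 1), treated minus control, with limma 3.58.1 (R 4.3.3, trend on) and p-values adjusted over all genes by Benjamini-Hochberg at 0.05. Fold changes on this scale understate those of low genes. Muscle minus liver was tested on log2(CPM + 0.1), with CPM from the recovered reads, over all 19 libraries. edgeR 4.0.16 and DESeq2 1.42.0 on recovered reads, other pseudocounts, filters and scalings, and each library left out in turn were alternatives. The procedure was tested on simulated counts. Named genes were the 9 members, the 2 liver genes closest to each, and the listed relatives past the threshold or otherwise the 2 with the smallest p per list and tissue. Neighbouring genes and group means without 1 library were added after seeing the data.

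Sheep numbers pair the tissues, since they name the same animal. After removing group means, liver and muscle of 1 sheep had a median correlation across genes of 0.18 over 9 sheep, and those of different sheep -0.019. No library was a repeat of another: in each of 36 pairs within groups, chi-square divided by its degrees of freedom was at least 19.4. Intervals from reads cover counting error only.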

Additional observations from a re-analysis of the deposited data

Results flagged for a closer look

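CANT1 in control liver of sheep 201 had a normalized count of 1273, and the gap to the next control, at 942, was 0.857 of the range of that group.

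KLHDC7A in treated muscle of sheep 185 had a normalized count of 0.727, which is 1 read, where the other 4 treated muscle libraries had 0. These were 2 flags among 36 combinations of gene and group, and chance flags about 1 in 20 groups of continuous values. In a group with a single read, as for KLHDC7A, the gap is the whole range by construction.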

How the results depend on the processing

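Treated minus control, limma called 1 gene in liver, and 0 with a mean of at least 50, 32 by DESeq2, 9 with all libraries in 1 fit and the sheep as a replicate block, and 1 without each library in turn. In muscle it called 1 gene, and 0 with a pseudocount of 0.25 or a mean of at least 50, 252 by DESeq2, 1 with the replicate block and between 0 and 4 without 1 library. It was 0 without control 98, control 201, treated 48 or treated 185, 2 without control 132 and 4 without treated 255. No setting tried called a member in muscle, with 0 called without each library in turn. The 4 muscle differences kept their direction under the settings tried, except SMTNL2, which was at -0.014 without treated 255 and at up to 0.15 without another library. The liver differences of the 9 genes were selected on these libraries, so their direction under other settings is no sign of stability; with a mean of at least 50 only CANT1, MIOX, AASDH and SMTNL2 were left in liver. Muscle minus liver, 11259 genes passed, 11183 with the replicate block, and between 11073 and 11326 without 1 library. CANT1, AASDH, SMTNL2 and DUSP26 passed in the same direction under each setting tried, in control sheep alone and with the block. The other 5 passed the filter through liver reads alone, so their calls are not counted; with a mean of at least 50, 5 of the 9 genes were left, these 4 and MIOX. The block changed no call of these 4. CD22, KLHDC7A, MIOX, NPTX2 and UNC13C had between 1 and 55 reads over the 10 muscle libraries, which limits them there.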
